A study of Mus musculus with 6 samples.

Results

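The miR-29 and miR-148/miR-152 families were followed in mouse embryonic stem cells (ESCs) as miRNAs known to target the DNA methylation machinery. Their members were the 8 rows of the deposited count table with the names mmu-miR-29a-3p, mmu-miR-29a-5p, mmu-miR-29b-3p, mmu-miR-29c-3p, mmu-miR-148a-3p, mmu-miR-148a-5p, mmu-miR-148b-3p and mmu-miR-152-3p, of 1907 mature miRNAs in all. They were taken by name and not by a limit on their values. The members and the lists of other miRNAs below were chosen with earlier results of these data known. Small RNA was sequenced from 2 C57BL/6 ESC lines, RB18 and RB20, each in serum, 2i and R2i, which gave 6 libraries and 2 per medium. Both lines were derived in R2i, and 2i and serum cells were obtained by moving R2i cells and passaging them more than 10 times. Cells grew on gelatin without feeders, and all media held LIF at 1000 U/ml. Serum medium held 15% fetal bovine serum. The 2i medium was serum-free N2B27 with the MEK inhibitor PD0325901 at 1 µM and the GSK3 inhibitor CHIR99021 at 3 µM, and R2i was N2B27 with PD0325901 at 1 µM and the TGF-β receptor inhibitor SB431542 at 10 µM. Each library came from a pool of independently grown cultures of 1 line. Any spread within a medium is that between 2 libraries, in which line, culture pool and library preparation cannot be told apart.

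DNMT1 copies DNA methylation onto the new strand after replication, DNMT3A and DNMT3B add it to unmethylated DNA, and TET enzymes oxidize it. A miRNA finds its targets mainly by pairing of its seed, bases 2 to 8 from the 5′ end, with the 3′UTR of an mRNA. The miR-29 family is known to repress Dnmt3a and Dnmt3b and also the Tet genes, and the miR-148/miR-152 family is known to repress Dnmt1. ESCs in 2i are known to carry less DNA methylation than ESCs in serum, which is why these families are of interest in a comparison of the media. A miRNA hairpin gives a 5p and a 3p product, and in these families the 3p product carries the seed for which they are known.

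The mature sequences of the 3p members show how close the products are to each other. They are RefSeq entries (GRCm38.p6), 5′ to 3′, with the seed in capitals, and all 8 members were matched.
miR-29a-3p: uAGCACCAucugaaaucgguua
miR-29b-3p: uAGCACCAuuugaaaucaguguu
miR-29c-3p: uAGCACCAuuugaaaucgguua
miR-148a-3p: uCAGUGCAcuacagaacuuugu
miR-148b-3p: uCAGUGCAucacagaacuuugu
miR-152-3p: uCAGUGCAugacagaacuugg

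Each of these 2 seeds was held by 3 of 1679 mature mouse miRNAs searched, namely the 3 listed members of the family. Counting from the 5′ end, miR-29a-3p and miR-29c-3p differ at 1 base, C10U, and miR-29a-3p and miR-29b-3p at C10U, G18A, U21G and A22U. miR-148a-3p and miR-148b-3p differ at C9U and U10C, and miR-148a-3p and miR-152-3p at C9U, U10G and U20G. The split of reads between miR-29a-3p and miR-29c-3p therefore rests on 1 base, and a read with an error at that base can be counted for the other. The 5p members have other seeds, and they are shown with the other 5p products that the results use.
miR-29a-5p: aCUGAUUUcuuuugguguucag
miR-148a-5p: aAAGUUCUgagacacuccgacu
miR-148b-5p: gAAGUUCUguuauacacucaggcu
miR-152-5p: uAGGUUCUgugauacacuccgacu

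The members come from 7 hairpin genes, with positions in GRCm38. Mir29a (chr6:31062660-31062747, minus strand) lies 275 bases from Mir29b-1 (chr6:31063023-31063093, minus strand), which overlaps an exon of the lincRNA Gm27019. Mir29b-2 (chr1:195037040-195037120, plus strand) lies 426 bases from Mir29c (chr1:195037547-195037634, plus strand), and both overlap an exon of the non-coding transcript A330023F24Rik and, on the opposite strand, of Cd46. Mature miR-29b-3p is identical from both genes, so its count cannot be divided between chromosomes 1 and 6. Mir148a (chr6:51269812-51269910, minus strand) is intergenic, 162760 bases from the nearest coding gene, Nfe2l3. Mir148b (chr15:103285125-103285221, plus strand) and Mir152 (chr11:96850393-96850465, plus strand) lie in introns of Copz1 and Copz2, a pair of related genes for coatomer subunits. The Mir152 hairpin is shown because both of its arms, in capitals, are used below.
Mir152: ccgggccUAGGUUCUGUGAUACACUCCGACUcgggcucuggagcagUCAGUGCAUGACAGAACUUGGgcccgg

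The annotated 3′UTRs of methylation genes were searched on the mRNA strand for the letters that pair with each seed, TGGTGCT for miR-29 and TGCACTG for miR-148/miR-152, using 1 transcript per gene. The miR-29 letters stood in 12.2% and the miR-148/miR-152 letters in 11.8% of 21024 mouse 3′UTRs. Dnmt1, the maintenance methyltransferase, held 1 match to miR-148/miR-152, which 3.17% of 3′UTRs of similar length held, and 0 to miR-29. Dnmt3a and Dnmt3b, the de novo enzymes, held 5 and 1 matches to miR-29 and 0 to miR-148/miR-152, and the shares of similar-length 3′UTRs with a miR-29 match were 47.1% and 12.4%. Uhrf1, the partner that brings DNMT1 to hemimethylated DNA, held 1 match to miR-148/miR-152 (10.4% of similar length), and Dnmt3l, a cofactor of the de novo enzymes, held 0 to either seed. Tet1, Tet2 and Tet3 held 7, 5 and 8 matches to miR-29, found at least once in 49.6%, 27.3% and 44.6% of 3′UTRs of similar length, and 0 to miR-148/miR-152. Tdg, a glycosylase that removes oxidized methylcytosine, held 3 to miR-29 (18.5%) and 2 overlapping ones to miR-148/miR-152 (19.1%). In 4 of these genes 1 match each is shown in capitals, with the base after it and its surroundings as DNA letters of the mRNA strand. Of the 5 matches in Dnmt3a and 7 in Tet1, the one shown is followed by an A, which most of the others are not.
Dnmt1 (chr9:20907483-20907508, minus strand, miR-148/miR-152): gagccccacgTGCACTGatgttttta
Dnmt3a (chr12:3911464-3911489, plus strand, miR-29): ggtcccaagcTGGTGCTaattcctct
Dnmt3b (chr2:153686617-153686642, plus strand, miR-29): tagcccggcaTGGTGCTcatgttctc
Tet1 (chr10:62806034-62806059, minus strand, miR-29): ttgaaggagaTGGTGCTagctgaaca
A match of letters is a description of the sequence and does not show that the site is used.

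Library totals ranged from 1041858 to 3593356 counts, and the 8 members together took 1.11% to 1.76% of a library. Levels below are CPM scaled by TMM (normalized CPM), and since mature miRNAs are of nearly equal length they are compared without a length term. A miRNA was called differentially expressed at an adjusted p under 0.01 and more than 2-fold by edgeR's quasi-likelihood test, which takes its spread from all 6 libraries. An exact permutation test of 2 against 2 libraries cannot go below p = 0.33, so each p rests on that shared spread. The 7 ESC marker miRNAs, of the miR-290-295 and miR-302 clusters, were all above 3 counts in every library and took 23.8% to 34.8% of the counts. The 5 blood markers summed to 3210 to 3260 normalized CPM for serum, 2080 to 5190 for 2i and 756 to 1490 for R2i, with miR-223-3p at 0 in all libraries and 3 of the 5 above 3 counts in both serum libraries, against 4 in 2i and 4 in R2i. The 7 mesenchymal markers summed to 2110 to 2850, 4010 to 4810 and 3400 to 4100, the 3 muscle markers to 46.6 to 79.4, 0.305 to 0.486 and 4.0 to 7.72, and the hepatocyte marker miR-122-5p stayed at or under 3.47.

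The 2 families took very different shares of the reads in these libraries. Whether different miRNAs were read with equal efficiency was not tested, so these are ratios and ranks of reads. The miR-148/miR-152 3p products together took 1.02% to 1.67% of a library and the miR-29 3p products 0.0325% to 0.0598%. The ratio of the family sums was 19.9 and 51.4 for serum (RB18 and RB20), 25.4 and 27.9 for 2i and 25.5 and 30.4 for R2i, so the serum libraries held both the lowest and the highest ratio. The order of the members was led by miR-148a-3p, which ranked 17 to 21 among all miRNAs of a library, followed by miR-148b-3p at ranks 48 to 66. miR-148a-5p (ranks 102 to 144) and miR-29a-3p (ranks 117 to 146) followed at levels that overlapped. miR-152-3p (ranks 151 to 297) and miR-29b-3p (ranks 197 to 260) also overlapped, miR-29c-3p ranked 321 to 371, and miR-29a-5p, at 4 to 13 counts, ranked 519 to 571.

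**Figure D1:**
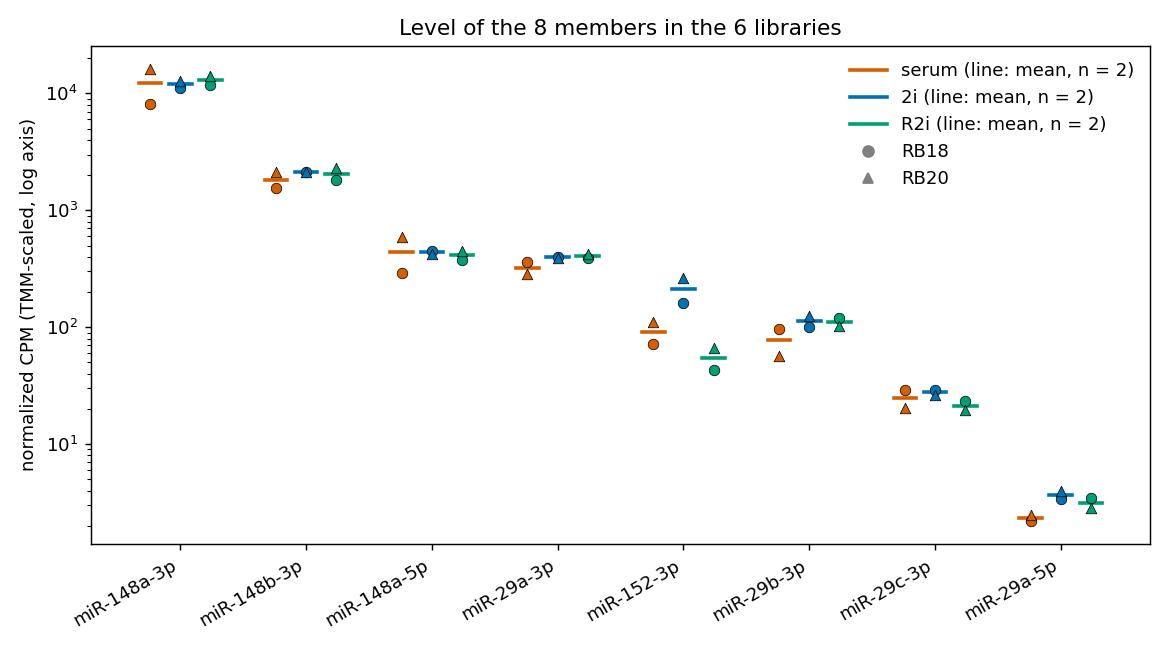
Normalized CPM (log axis) of the 8 members in serum, 2i and R2i, with 1 point per library (circles RB18, triangles RB20) and a line at the mean of 2. miR-148a-3p was highest throughout. For miR-152-3p both 2i libraries lay above and both R2i libraries below the serum libraries, but edgeR called it in no comparison of media.

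Of the 7 members that could be tested, 0 were called by edgeR in 2i against serum, where 34.2% of 571 tested miRNAs were called, and 0 in R2i against serum, where 30.6% were called. In 2i against R2i 0 members were called, against 0.350% of all tested. In ground state against serum, with ground state as the mean of 2i and R2i, edgeR called 0 members and 37.0% of all tested. Between single media, an unadjusted p under 0.05 was found for 1 member in 2i against serum, 0 in R2i against serum and 1 in 2i against R2i. Of all 571 tested miRNAs, 104 were under this p in 2i against R2i and at least 283 in R2i against serum. DESeq2 called 1, 0 and 1 members in the 3 comparisons of single media and limma called 0 in each. Shares over all miRNAs are not given here for 2i against serum at this p, nor for DESeq2 and limma. The member below p 0.05, and the one DESeq2 called, was miR-152-3p both times. Across the 7 members the log2 fold change had a median of 0.21 in 2i against serum, 0.08 in R2i against serum and 0.04 in 2i against R2i, and over all 571 miRNAs it was -0.03, -0.07 and 0.01. Both comparisons with serum use the same serum libraries and are not independent of each other. As these are bulk samples, fewer cells with a miRNA and less of it per cell cannot be told apart.

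**Figure D2:**
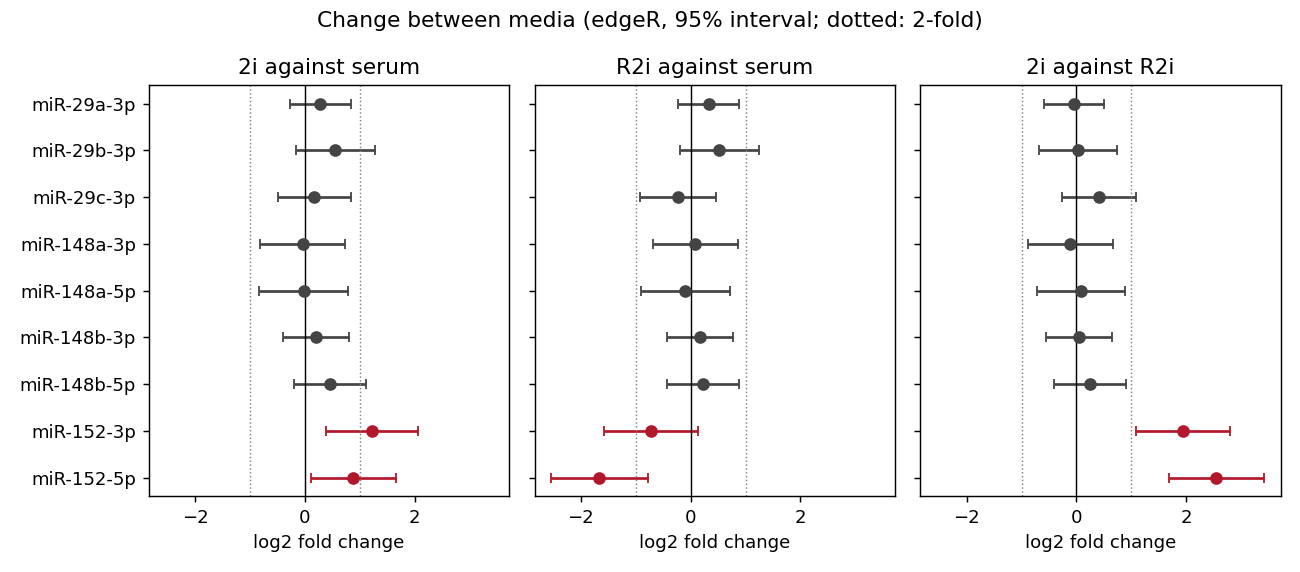
Log2 fold changes of the 7 tested members and of miR-148b-5p and miR-152-5p between media, as points with 95% intervals from edgeR, with dotted lines at 2-fold. The intervals of the miR-29 members and of both miR-148a arms crossed 0 in every panel, while those of miR-152 (red) lay above 0 in 2i against serum and 2i against R2i.

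miR-152, whose 3p product shares its seed with miR-148a-3p and miR-148b-3p, gave the largest fold change of the 7 tested members in each comparison of 2 media. mmu-miR-152-3p was at 72.3 and 110.1 normalized CPM for serum (RB18 and RB20), 160.9 and 263.5 for 2i and 42.9 and 66.1 for R2i. Both 2i libraries were above both serum libraries, and both R2i libraries were below them, so none of the media overlapped. Among all tested miRNAs, both 2i libraries were above serum in 39.2%, both R2i libraries below serum in 38.2% and both 2i libraries above R2i in 29.9%.

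In 2i, mmu-miR-152-3p was 2.33-fold above serum (log2 1.22, SE 0.36), with an adjusted p of 0.0234 by edgeR's quasi-likelihood test, which missed the call limit. Blocking on the cell line, this difference was called (log2 1.21, adjusted p = 0.00692), and it was also called by DESeq2 (adjusted p = 0.00316). Without 2i RB20 it was 0.82 with an adjusted p of 0.16. Within the lines the difference was 1.14 in RB18 and 1.25 in RB20, so the direction and size were alike in both. In R2i, miR-152-3p was lower than in serum by a log2 of -0.72 (SE 0.37, adjusted p = 0.154), and by -0.74 in RB18 and -0.73 in RB20.

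The direct comparison of the 2 inhibitor media gave the widest gap for miR-152-3p. It was 3.84-fold higher in 2i than in R2i (log2 1.94, SE 0.37, 95% interval 1.08 to 2.80), with an adjusted p of 0.0714 by edgeR. The log2 difference was 1.88 in RB18 and 1.98 in RB20. Under the line block the adjusted p was 0.0277, which still missed the call limit, and DESeq2 called it (adjusted p = 0.000111). It was called in 2 of 14 other settings, DESeq2 and edgeR without a filter on low counts, and missed the limit in the rest.

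The other arm of the same hairpin, miR-152-5p, which is not a member but is cut from the same precursor, was at 26.3 and 51.1 normalized CPM for serum, 62.2 and 80.9 for 2i and 11.2 and 12.9 for R2i. Its media were ordered as those of the 3p arm, again without overlap, on counts that fell to 13 and 45 in R2i. In R2i it was 3.17-fold below serum (log2 -1.66, SE 0.38, adjusted p = 0.00863 by edgeR) and was called. This call was lost when only the 2 media compared were fitted (adjusted p = 0.0237) and when any 1 library other than serum RB18 was left out (adjusted p from 0.0121 to 0.05). In 2i it was above serum by a log2 of 0.89 (SE 0.34, adjusted p = 0.0583) and above R2i by 2.55 (SE 0.37, adjusted p = 0.0312), neither of which was called by edgeR. The difference from R2i was called by DESeq2 (adjusted p = 6.8e-06), without a filter on low counts and with library totals in place of TMM. Over the 6 libraries the levels of both arms had a Pearson correlation of 0.943 on the log2 scale, as a description of products of 1 hairpin in shared libraries.

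The sum of the blood marker list was lowest in R2i, as miR-152 was, although its 2i and serum ranges overlapped. Its members did not move together. Mean normalized CPM in serum, 2i and R2i was 2430, 3050 and 453.1 for miR-142a-5p and 252.4, 231.7 and 58.91 for miR-142a-3p. By contrast, miR-150-5p (553.6, 342.8 and 590.1) and miR-451a (0.7436, 10.44 and 18.88) were highest in R2i, and miR-223-3p was at 0. The part of the blood markers in the miR-152 result was not tested.

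**Figure D3:**
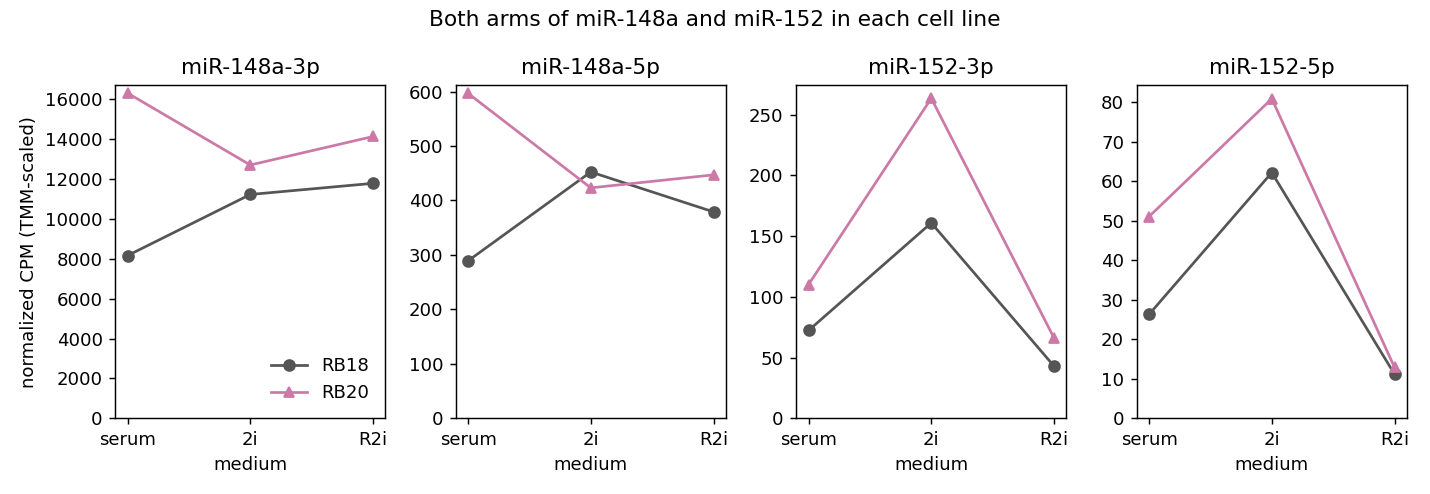
Normalized CPM of both arms of miR-148a and miR-152 in serum, 2i and R2i, with 1 line per cell line (circles RB18, triangles RB20). For miR-152 both lines peaked in 2i and were lowest in R2i, while for miR-148a the lines were farthest apart in serum, at 8163 and 16320 for the 3p arm.

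mmu-miR-148a-3p, the dominant product of its family, was at 8163 and 16320 normalized CPM for serum (RB18 and RB20), 11230 and 12710 for 2i and 11790 and 14140 for R2i. The serum libraries were the lowest and the highest of the 6, so all media overlapped. The log2 fold change was -0.03 (SE 0.33, 95% interval -0.81 to 0.74, adjusted p = 0.938 by edgeR) in 2i against serum and 0.08 (SE 0.33, 95% interval -0.69 to 0.86, adjusted p = 0.875) in R2i against serum. These intervals still allow a difference of over 1.5-fold in either direction.

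The gap between the 2 serum libraries was seen in both arms of Mir148a. mmu-miR-148a-5p was at 289.1 and 596.9 normalized CPM for serum, 452.4 and 423.2 for 2i and 379.1 and 447.1 for R2i. In RB18 both arms were lower in serum than in either inhibitor medium, and in RB20 both were higher. For miR-148a-5p the log2 fold change was -0.02 (SE 0.35, adjusted p = 0.968 by edgeR) in 2i and -0.10 (SE 0.35, adjusted p = 0.852) in R2i against serum. The 3p arm was 24.8 to 31.6 times the count of the 5p arm in the 6 libraries, and their log2 levels had a Pearson correlation of 0.926 over these libraries.

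mmu-miR-148b-3p, from the Copz1 intron, was at 1541 and 2126 normalized CPM for serum, 2122 and 2108 for 2i and 1800 and 2314 for R2i. Serum RB18 was the lowest library, and all media overlapped. It was 0.21 (SE 0.26, adjusted p = 0.536 by edgeR) higher on the log2 scale in 2i and 0.17 (SE 0.26, adjusted p = 0.659) higher in R2i than in serum. Its 5p arm, miR-148b-5p, gave 0.46 (SE 0.28, adjusted p = 0.21) and 0.22 (SE 0.28, adjusted p = 0.58).

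Within the miR-148/miR-152 family the shares of the 3p products followed these levels. miR-148a-3p made up 83.1% to 88.0% and miR-148b-3p 11.5% to 15.8% of the family count of a library. miR-152-3p made up 0.739% and 0.593% for serum (RB18 and RB20), 1.19% and 1.75% for 2i and 0.315% and 0.4% for R2i. Its 95% Wilson intervals, which cover counting error only, ran from 0.52% to 0.876% over the serum libraries. They ran from 1.07% to 1.87% over the 2i libraries and from 0.239% to 0.455% over the R2i libraries, and did not meet between media. The intervals of 2i RB18 (1.07% to 1.32%) and 2i RB20 (1.63% to 1.87%) did not meet each other either, while those within serum and within R2i did. Intervals that do not meet therefore do not measure the spread between libraries of 1 medium. The family total in reads was thus carried by miR-148a-3p in every medium, and miR-152-3p was a small part of it throughout.

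**Figure D4:**
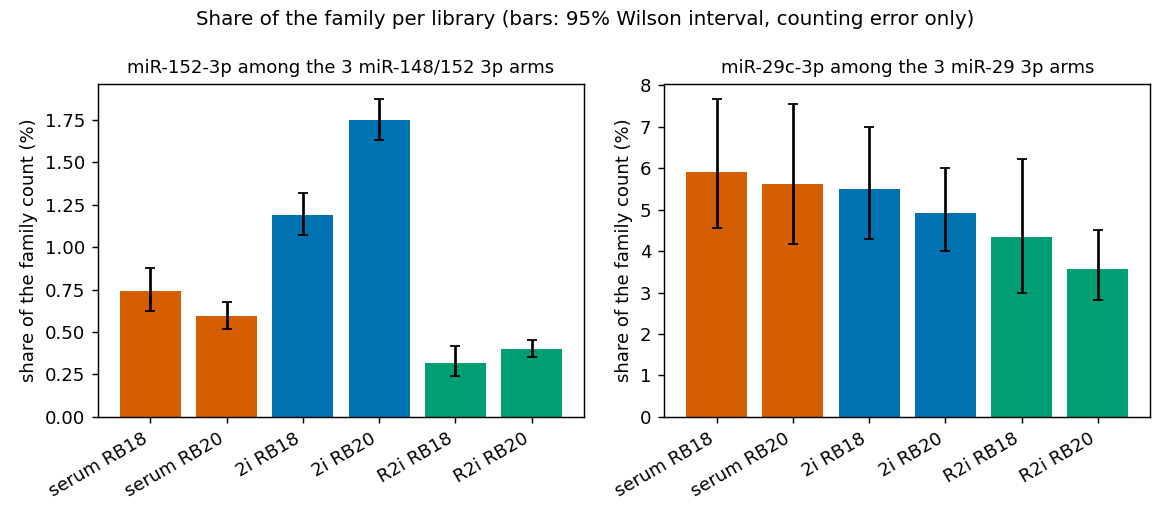
Share of miR-152-3p among the 3 miR-148/miR-152 3p products and of miR-29c-3p among the 3 miR-29 3p products, in percent of the family count, 1 bar per library with 95% Wilson intervals that cover counting error only. miR-152-3p was highest in 2i, at 1.19% and 1.75%, and lowest in R2i, and the intervals of miR-29c-3p overlapped between media.

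The miR-29 family was led by mmu-miR-29a-3p, at 364.1 and 284.1 normalized CPM for serum (RB18 and RB20), 400.9 and 389.3 for 2i and 391.2 and 422.5 for R2i. Both inhibitor media lay above both serum libraries and overlapped with each other. The difference was small against the spread, with a log2 fold change of 0.29 (SE 0.24, 95% interval -0.27 to 0.84, adjusted p = 0.348 by edgeR) in 2i and 0.33 (SE 0.24, 95% interval -0.22 to 0.88, adjusted p = 0.315) in R2i.

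mmu-miR-29b-3p, the product of Mir29b-1 and Mir29b-2, was at 97.5 and 57.0 normalized CPM for serum, 101.1 and 125.5 for 2i and 120.1 and 102.4 for R2i. Serum RB20 was far below the other libraries, and serum RB18 was just below the lowest 2i library. The log2 fold change was 0.56 (SE 0.31, adjusted p = 0.167 by edgeR) in 2i and 0.52 (SE 0.31, adjusted p = 0.22) in R2i. Without serum RB20 it was 0.22 in 2i and 0.19 in R2i. Within RB18 the log2 difference was 0.05 in 2i and 0.30 in R2i and within RB20 it was 1.12 and 0.83, so the gap lay mainly in RB20.

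mmu-miR-29c-3p, which differs from miR-29a-3p at 1 base, was at 29.0 and 20.3 normalized CPM for serum, 29.2 and 26.6 for 2i and 23.2 and 19.5 for R2i. The 2i libraries overlapped serum and lay above R2i. Its log2 fold change was 0.18 (SE 0.28, adjusted p = 0.643 by edgeR) in 2i and -0.23 (SE 0.30, adjusted p = 0.582) in R2i against serum, and 0.40 (SE 0.29, adjusted p = 0.506) in 2i against R2i.

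Non-overlap in itself was common in these data. Of the 7 tested members 3 had both 2i libraries above serum, 2 had both R2i libraries above serum and 1 had both below, and 2 had both 2i libraries above R2i. With both 2i libraries below serum or below R2i there were 0 members. Over all tested miRNAs, 39.2% had both 2i libraries above serum, 32.4% both R2i libraries above serum and 38.2% both below it. Both 2i libraries were above R2i in 29.9%, below serum in 38.5% and below R2i in 27.1%.

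The miR-29 family was divided over its 3p products with miR-29a-3p at 71.9% to 78.6%, miR-29b-3p at 15.8% to 23.2% and miR-29c-3p at 3.57% to 5.92% of the family count. Over the 6 libraries the log2 levels of miR-29a-3p and miR-29b-3p had a Pearson correlation of 0.881, and those of miR-29a-3p and miR-29c-3p one of 0.251, as descriptions of products that share libraries and depth. For miR-29b-3p and miR-29c-3p it was 0.415. Mir29a and Mir29b-1 lie side by side on chromosome 6, and Mir29b-2, which gives the same miR-29b-3p, lies beside Mir29c on chromosome 1. Whether position bears on these correlations was not tested.

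The 5p products of the miR-29 hairpins were near the limit of detection. mmu-miR-29a-5p had 4, 5, 7, 13, 4 and 10 counts (serum, 2i and R2i, RB18 before RB20 in each), below the filter of the test, and its 3p arm had 98.1 to 166 times as many. miR-29c-5p had 0 to 11 counts, miR-29b-1-5p 0 to 8 and miR-29b-2-5p 0 to 3, so no difference between media was detectable for them at this depth. By contrast, the ratio of 3p to 5p counts was 5.32 to 6.62 for Mir148b and 2.16 to 5.13 for Mir152. The highest Mir152 values, 3.85 and 5.13, were in R2i, on 13 and 45 counts of the 5p arm. As a 3p share these were 79.37% (95% Wilson interval 67.8% to 87.5%) and 83.7% (78.9% to 87.6%). The share was 76.51% (73.9% to 78.9%) in 2i RB20, inside the interval of R2i RB18.

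The miRNAs whose log2 levels were most like those of miR-29a-3p over the 6 libraries were miR-15b-5p (Pearson 0.973), miR-295-3p (0.963) and miR-342-3p (0.939), out of 570 compared. For miR-148a-3p they were miR-106b-3p (0.987), miR-140-3p (0.938) and its own 5p arm (0.926). With 6 libraries such values are a description.

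Other miRNAs have been reported in some tissue to repress a DNA methyltransferase. Of 7 tested, edgeR called 1 higher and 0 lower in each comparison with serum, where 16.8% of all tested miRNAs were called higher and 17.3% lower in 2i and 15.1% and 15.6% in R2i. In 2i against serum DESeq2 called 3 and limma 2, and in R2i against serum each called 1. Shares over all miRNAs are not given for DESeq2 and limma, so these counts do not show whether the list was called more often than other miRNAs. The one edgeR called was miR-377-3p, a Dlk1-Dio3 miRNA, with a mean ± SD (n = 2) of 1.02 ± 0.664 normalized CPM for serum, 59.5 ± 11.3 for 2i and 43.6 ± 5.04 for R2i, and edgeR adjusted p-values of 6.86e-05 and 0.000164. Its serum level rested on very few reads, so no fold is given. miR-143-3p was above serum in 2i by a log2 of 1.02 (SE 0.25, adjusted p = 0.011 by edgeR), just outside the call limit, and was called by DESeq2 (adjusted p = 0.00021) and limma (adjusted p = 0.00617), and it is also one of the mesenchymal markers. miR-101a-3p gave -1.06 (adjusted p = 0.0177) in 2i and miR-342-3p 0.84 (adjusted p = 0.0261) in 2i and 0.87 (adjusted p = 0.0264) in R2i, none of them called by edgeR. DESeq2 called miR-101a-3p in 2i (adjusted p = 0.00168). Without serum RB18, miR-101a-3p was called in 2i (adjusted p = 0.00297) and miR-342-3p in 2i (adjusted p = 0.00786) and in R2i (adjusted p = 0.00832). miR-101b-3p, miR-126a-3p and miR-185-5p had adjusted p-values of 0.967, 0.661 and 0.0617 in 2i against serum.

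Over all tested miRNAs, edgeR called 17.3% lower in 2i against serum and 15.6% lower in R2i against serum. Among 3 miRNAs reported to repress TET enzymes, miR-22-3p was called lower by edgeR, DESeq2 and limma in both inhibitor media. Its mean ± SD (n = 2) was 18250 ± 5840 normalized CPM for serum, 5905 ± 546 for 2i and 5972 ± 1160 for R2i, a log2 fold change of -1.63 (SE 0.29, adjusted p = 0.00251 by edgeR) and -1.61 (SE 0.29, adjusted p = 0.00287). The edgeR call in 2i was lost without 2i RB18 (adjusted p = 0.0187) or 2i RB20 (adjusted p = 0.033), and that in R2i without R2i RB18 (adjusted p = 0.0373) or R2i RB20 (adjusted p = 0.011) and with only the 2 media compared (adjusted p = 0.0161). miR-26b-5p gave -0.72 (adjusted p = 0.0402) and -0.80 (adjusted p = 0.0317) and miR-26a-5p 0.23 (adjusted p = 0.51) and 0.05 (adjusted p = 0.891), and neither was called by edgeR. Of the 4 miR-290-295 products that repress Rbl2, a repressor of the de novo methyltransferase genes, 0 were called by edgeR, DESeq2 or limma in either comparison with serum. Of all tested miRNAs, edgeR called 34.2% in 2i against serum and 30.6% in R2i against serum, in either direction. At an unadjusted p under 0.05 by edgeR there was 1 of the 4 in 2i and 0 in R2i. The 1 in 2i was miR-291b-3p, at 0.76 (SE 0.21, adjusted p = 0.0177 by edgeR) on the log2 scale. At least 283 of 571 tested miRNAs were under this p in R2i against serum, and the number in 2i against serum is not given here.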

How the data were processed

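Small RNA libraries of 6 ESC samples were analysed. The authors trimmed adaptors, aligned reads to mouse (mm10) and deposited counts, whole numbers without normalization, of 1907 mature miRNAs. The submitters' processing notes list FastQC 0.11.5, cutadapt 1.3, Bowtie 1.1.2 and featureCounts 1.5. How reads that fit several members were counted and whether strand was used is not given in the sources used here. The authors also deposited log2 values for the 1233 miRNAs with at least 1 count, and these equal log2(count / size factor + 1) within 0.005. No column of values was left unused.

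The test was edgeR 4.0.16 under R 4.3.3, with TMM scaling, a coefficient for each medium and all 6 libraries; filterByExpr (minimum count 10, minimum total 15) left 571 miRNAs. A call needed a Benjamini-Hochberg adjusted p under 0.01 over all tested miRNAs and more than 2-fold, and the common coefficient of variation was 24.6%. Standard errors are the log2 fold change over the square root of F. The code was tested on simulated counts. Pearson correlations used log2 of normalized CPM plus a pseudocount of 1. Replicate numbers stand for the 2 cell lines, so same-numbered libraries are paired by design; their deviations from the medium means correlated at 0.21 (serum and 2i), -0.128 (serum and R2i) and 0.248 (2i and R2i). Alternatives were a line block, DESeq2 1.42.0, library totals, other filters, limma 3.58.1 on the deposited log2 values, another call limit, only the media compared, and leaving out each library. Wilson intervals (95%) cover counting error of reads, which are not independent molecules, and 3 counts were taken as the limit of detection.

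All 8 members, the other arms and 3 lists of miRNAs reported to act on methyltransferases, TET enzymes or Rbl2 were named whatever their values, with the 3 miRNAs most like miR-29a-3p and miR-148a-3p. Members and lists were chosen with earlier results of these data known. Positions are from GENCODE M21 (GRCm38) and sequences from RefSeq. Methylation and mRNA levels were not analysed here.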

Additional observations from a re-analysis of the deposited data

Results flagged for a closer look

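Both arms of miR-148a moved in opposite directions in the 2 cell lines. On the log2 scale miR-148a-3p in 2i minus serum was 0.46 in RB18 and -0.361 in RB20, and in R2i minus serum it was 0.53 and -0.207. miR-148a-5p gave 0.644 and -0.495 in 2i and 0.39 and -0.416 in R2i. The other tested members and arms did not do so in both comparisons with serum. The pattern was not confined to miR-148a, as miR-101b-3p gave 0.417 in RB18 and -0.333 in RB20 in 2i and 0.449 and -0.708 in R2i. The share of all tested miRNAs with this pattern is not given here. Each value compares 1 library with 1 other, and both comparisons share the serum library of the line. The difference between the lines was not tested.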

How the results depend on the processing

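The 7 tested members were compared with 14 other settings in 3 comparisons, 294 values in all, of which 249 kept direction and side of the call limit, 7 passed the limit only under the other setting and 38 changed sign.

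The line pairing (replicate block) made miR-152-3p in 2i against serum a call (log2 1.21), left 0 calls in 2i against R2i where there were 2, and otherwise changed no call of a member. Calls in 2i against R2i were 25 without a filter, 1 with at least 10 counts in every library, 12 with DESeq2 and 0 with only those media. Requiring 10 counts in every library left 128 of 195 calls in 2i against serum and 135 of 211 in ground state (mean of 2i and R2i) against serum. Leaving out 1 library gave 132 to 178, 112 to 162 (from 175 in R2i against serum, lowest without R2i RB18), 0 to 2 (above 0 only without 2i RB18) and 158 to 193 calls. Under the adjusted p of 0.05 with no fold limit, 292, 238, 3 and 293 miRNAs passed. Library totals moved the median of R2i against serum from -0.07 to 0.03.

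With all libraries kept, the values that changed sign were close to 0. In the order block, library totals, no filter, 10 counts, DESeq2 and limma, 2i against serum was 0.034, 0.0231, 0.0296, 0.0744, 0.000871 and 0.06 for miR-148a-3p, 0.0563, 0.0409, 0.0431, 0.0888, 0.0161 and 0.09 for miR-148a-5p, and 0.00668, 0.0323, 0.0427, 0.0855, 0.0123 and 0.06 for miR-101b-3p. miR-291a-3p was 0.00193 without a filter and 0.0306 with 10 counts. In R2i against serum, miR-148a-5p was 0.0329 (totals), 0.00022 (10 counts) and 0.05 (limma). In 2i against R2i, miR-29b-3p was -0.057 (totals), -0.0164 (DESeq2) and -0.02 (limma), and miR-148b-3p -0.0317 (totals) and -0.0057 (DESeq2).

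With 1 library left out, 2i against serum ran from -0.0624 to 0.53 for miR-29c-3p, -0.37 to 0.55 for miR-148a-3p, -0.37 to 0.60 for miR-148a-5p, -0.30 to 0.46 for miR-101b-3p and -0.15 to 0.13 for miR-291a-3p. R2i against serum ran from -0.47 to 0.13 for miR-29c-3p, -0.25 to 0.67 for miR-148a-3p, -0.0272 to 0.42 for miR-148b-3p, -0.44 to 0.52 for miR-148a-5p, -0.077 to 0.47 for miR-148b-5p, -0.45 to 0.29 for miR-101b-3p, -0.16 to 0.44 for miR-126a-3p, -0.32 to 0.33 for miR-26a-5p and -0.0943 to 0.21 for miR-291a-3p. 2i against R2i ran from -0.0773 to 0.0144 for miR-29a-3p, -0.13 to 0.19 for miR-29b-3p, -0.21 to 0.0224 for miR-148a-3p and -0.0908 to 0.23 for miR-148b-3p. For miR-152-3p the range was 0.82 to 1.56 in 2i against serum, -1.09 to -0.38 in R2i against serum and 1.54 to 2.31 in 2i against R2i, always in 1 direction. The cause of these changes was not tested.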
